A study of Mus musculus with 24 samples.

Results

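The genes described here are 43 genes of autophagy and the lysosome, listed by name, of which 42 were measured among the 22180 genes tested. A gene was measured where the arrays held a transcript cluster, the set of probes assigned to 1 locus, that carried its symbol and no other. Where a gene had several such clusters, as Gabarap and Npc1 did, the one with the highest mean was used. Optn, a cargo receptor, had no cluster of its own and is not reported. By role, 22 of the 42 build the autophagosome or load it, 12 are lysosomal enzymes or subunits of the lysosomal proton pump, 6 are other lysosomal proteins and 2 are transcription factors.

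Muscle cells had been isolated from the quadriceps of offspring of ICR mice, an outbred strain, and their RNA was profiled on 24 arrays in 4 groups of 6. Dams ate freely (control) or, from day 12.5 of pregnancy, received 50% of the food of controls matched for day (undernourished), and dams of both groups ate freely after delivery, with litters set to 8 pups. Cells of both kinds of offspring were grown alike and differentiated in low-glucose DMEM (5.5 mM glucose) with 2% serum, the standard medium. The limited medium, given overnight, was DMEM in which glucose was 0.5 mM, with 1% serum, 1 mM glutamine and carnitine at 0.5 mM, so that the media differed in several components at once. Each array also carries a culture number, 12 in all, and each number occurs once in each medium. Cultures 5, 10, 11, 15, 16 and 24 came from control offspring and cultures 1, 4, 8, 9, 12 and 20 from undernourished offspring. The labels do not say whether a number marks an animal, a litter or a dish, nor the age of the offspring, so the p-values rest on a spread between samples that may be technical. In cultures 9 and 12 the deviations of both arrays from their group means hardly correlated (-0.050 and 0.018). Counts and differences by culture in undernourished cultures therefore join arrays by number alone, and pairing there is not established.

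Autophagy wraps part of the cytoplasm in a double membrane, the autophagosome, which fuses with a lysosome whose acid hydrolases break the contents down to amino acids, sugars and lipids for reuse. The ULK1 kinase complex starts the process when nutrients are short, a lipid kinase complex around Beclin 1 marks the site, and conjugation enzymes attach proteins of the ATG8 family (LC3 and GABARAP) to the growing membrane. TFEB and TFE3 are transcription factors that enter the nucleus in starvation and bind E-box sequences near lysosomal genes, and skeletal muscle depends on autophagy to keep its fibres intact in fasting.

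The mean level of 15 myotube markers lay between 11.6 and 12.2 on the log2 scale on every array, and that of 8 satellite cell and myoblast markers between 9.37 and 10.0. The means of the macrophage and leukocyte, endothelial, adipocyte, and smooth muscle and pericyte markers lay between 4.82 and 6.50. Over both diets 2 of the 15 myotube markers rose in limited medium and 1 of the 8 satellite cell markers fell, beside 3.56% and 3.28% of all genes. The myotube marker mean was 11.87 in standard and 12.01 in limited medium in control cultures, and 11.75 and 11.92 in undernourished cultures. For the satellite cell and myoblast markers these means were 9.59 and 9.58, and 9.59 and 9.54. The part of these markers in the results below was not tested. The mean of 8 fibroblast markers was higher in cultures 16 (7.33), 20 (7.55) and 24 (6.48) than in the other 9, which lay between 5.52 and 6.02. The same 3 cultures had the highest means of 5 Schwann and glial markers, with 8.51 in culture 20, 6.92 in culture 16 and 6.81 in culture 24. Values are log2 signal as deposited, in which 1 unit is a doubling, and levels of different genes cannot be set against each other because their probes differ. A gene was called where its adjusted p in limma, over all 22180 genes, was under 0.05. In cultured cells taken as a whole, fewer cells of a type and less RNA per cell cannot be told apart, which holds for every difference below.

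The first question was how the limited medium changed these genes over both maternal diets. Of the 42 genes, 2 rose, Map1lc3a and Atg13, both on the autophagosome side, and 2 fell, Tmem175 and Atp6v1a, both on the lysosomal side. Changes were between 1.28-fold and 1.49-fold. Among all genes, 6.84% were called for the medium, 3.56% as higher and 3.28% as lower, so that 4 of 42 is near the background. The remaining 38 were not called, and all 42 differences lay between -0.58 and 0.50.

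Tmem175, a potassium and proton channel of the lysosomal membrane, had the clearest difference. In control cultures its lowest, median and highest level was 7.24, 7.43 and 7.70 in standard medium, against 6.60, 6.83 and 7.12 in limited medium. In undernourished cultures the corresponding levels were 7.38, 7.46 and 7.58, against 6.78, 6.93 and 6.97. All 12 arrays in limited medium lay below all 12 in standard medium. No other listed gene separated in this way in either direction, and 16 of the 22180 genes (0.0721%) did so in this one. Its groups also did not overlap within control cultures, as held for 0.613% of all genes in this direction, or within undernourished cultures (0.618%). The fall was 0.58 ± 0.063 (SE) on the log2 scale, 1.49-fold, with a 95% interval from -0.71 to -0.45 and an adjusted p of 1.61e-05 in limma. It ranked second of 22180 genes by p. The fall was called in control cultures (-0.60 ± 0.088, adjusted p 0.00222) and in undernourished cultures (-0.55 ± 0.088, adjusted p 0.00314). These fits leave out the culture number. With it as a replicate block in limma, the control fall was still called, with a larger SE (0.105) and an adjusted p of 0.0105. Over both diets the block gave an SE of 0.074 and an adjusted p of 0.000171, although pairing in undernourished cultures is not established. Culture by culture it ran from -0.12 in culture 5 to -1.10 in culture 15, and all 12 cultures had a lower level in limited medium. Without cultures 16, 20 and 24 the difference in control cultures was -0.50, with an adjusted p of 0.0582. Tmem175 overlaps Dgkq in the RefSeq annotation, and Dgkq differed by -0.17 (adjusted p 0.111), while the neighbouring Gak differed by -0.17 (adjusted p 0.181), both short of the threshold. Their part in the Tmem175 signal was not tested. The promoter of Tmem175 is printed because it belongs to the gene with the largest fall (RefSeq, GRCm38.p6, chr5:108629560-108629859, plus strand, from 250 bases before to 50 after the start). None of the 5 motifs searched below occurs in it, so no base is in capitals.
Tmem175 promoter: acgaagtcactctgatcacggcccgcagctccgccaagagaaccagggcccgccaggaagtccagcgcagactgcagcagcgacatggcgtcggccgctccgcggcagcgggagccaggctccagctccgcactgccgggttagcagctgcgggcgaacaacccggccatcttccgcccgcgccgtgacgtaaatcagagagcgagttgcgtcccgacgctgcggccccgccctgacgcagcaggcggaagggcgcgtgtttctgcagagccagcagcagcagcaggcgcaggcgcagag

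Atp6v1a encodes the catalytic A subunit of the vacuolar ATPase, the pump that acidifies the lysosome. Its lowest, median and highest level in control cultures was 9.07, 9.17 and 9.40 in standard and 8.58, 8.86 and 9.08 in limited medium. Undernourished cultures had 9.02, 9.37 and 10.03 in standard and 8.53, 8.75 and 9.04 in limited medium. In each kind of culture 1 array in limited medium lay above the lowest in standard medium, and limited medium gave the lower level in 12 of 12 cultures. Over both diets it fell by 0.50 ± 0.10 (SE) on the log2 scale, 1.42-fold, with an adjusted p of 0.0034 in limma. The difference was -0.64 ± 0.14 in undernourished cultures (adjusted p 0.0225) and -0.36 ± 0.14 in control cultures (adjusted p 0.264). The test of the difference between them did not call it (-0.29, 95% interval -0.70 to 0.13, adjusted p 1.00). Cultures 4 and 1 had the largest falls, -1.08 and -1.01, and the call in undernourished cultures was lost without culture 4 (adjusted p 0.0822), without culture 1 (0.107) or without culture 12 (0.0568). The promoter of Atp6v1a is printed for its E-box core CACGTG, in capitals, whose first base lies 131 bases before the start (RefSeq, GRCm38.p6, chr16:44139210-44139509, minus strand). This window lies wholly inside the annotated span of the gene, chr16:44085402-44139702, so its start is not the outermost one.
Atp6v1a promoter: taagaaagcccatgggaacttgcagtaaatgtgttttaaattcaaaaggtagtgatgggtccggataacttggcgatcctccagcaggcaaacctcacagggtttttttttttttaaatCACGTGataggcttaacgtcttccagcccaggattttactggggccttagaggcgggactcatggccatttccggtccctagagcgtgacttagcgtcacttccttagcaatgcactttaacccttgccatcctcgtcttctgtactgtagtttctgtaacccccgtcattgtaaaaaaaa

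Map1lc3a encodes LC3A, an ATG8 protein that is coupled to the autophagosome membrane. In control cultures its lowest, median and highest level was 8.06, 8.56 and 8.71 in standard and 8.74, 9.01 and 9.33 in limited medium. The undernourished cultures gave 7.72, 8.63 and 8.78 in standard and 8.76, 8.87 and 9.27 in limited medium. The 2 control groups did not overlap, which 0.573% of all genes shared in this direction, and in undernourished cultures 1 array in standard medium lay above the lowest in limited medium. Over both diets it rose by 0.50 ± 0.11 (SE) on the log2 scale, 1.41-fold, with an adjusted p of 0.00523 in limma, and the level was higher in limited medium in 12 of 12 cultures. Within a diet it was not called, at 0.54 ± 0.15 in control cultures (adjusted p 0.104) and 0.46 ± 0.15 in undernourished cultures (adjusted p 0.138). With the culture number as a replicate block, which the data bear out for the control cultures, the control difference was called, with an adjusted p of 0.0292, and the count of listed genes called there went from 1 to 2, against 2.48% of all genes with the block. The block raised the share of all genes called to 4.54% in undernourished cultures and to 11.7% over both diets. The largest rise, 1.15, was in culture 20, whose level in standard medium was the lowest of all, and the smallest, 0.080, was in culture 9.

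Atg13 encodes the subunit that ties the ULK1 kinase to its scaffold and is a substrate of the nutrient-sensing kinase mTORC1. In control cultures its lowest, median and highest level was 9.28, 9.55 and 9.74 in standard and 9.39, 9.72 and 10.06 in limited medium. It was 9.15, 9.43 and 9.94 in standard and 9.49, 10.04 and 10.47 in limited medium in undernourished cultures. Both pairs of groups overlapped, and the level was higher in limited medium in 10 of 12 cultures. Over both diets it rose by 0.36 ± 0.10 (SE) on the log2 scale, 1.28-fold, with an adjusted p of 0.0368 in limma. This call was lost when any 1 of 8 cultures was left out (adjusted p 0.0511 to 0.105). The difference was 0.55 ± 0.15 in undernourished cultures (adjusted p 0.0588) and 0.17 ± 0.15 in control cultures (adjusted p 0.68), and the difference between them, 0.38 with a 95% interval from -0.048 to 0.81, was not called (adjusted p 1.00). The Atg13 promoter is printed as that of the called initiation gene, and none of the 5 motifs was found in it (RefSeq, GRCm38.p6, chr2:91710543-91710842, minus strand).
Atg13 promoter: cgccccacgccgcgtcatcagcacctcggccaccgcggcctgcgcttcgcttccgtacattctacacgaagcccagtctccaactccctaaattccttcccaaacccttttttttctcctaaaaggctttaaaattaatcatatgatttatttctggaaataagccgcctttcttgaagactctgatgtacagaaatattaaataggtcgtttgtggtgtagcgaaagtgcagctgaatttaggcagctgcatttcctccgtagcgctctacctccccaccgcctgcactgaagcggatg

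**Figure D1:**
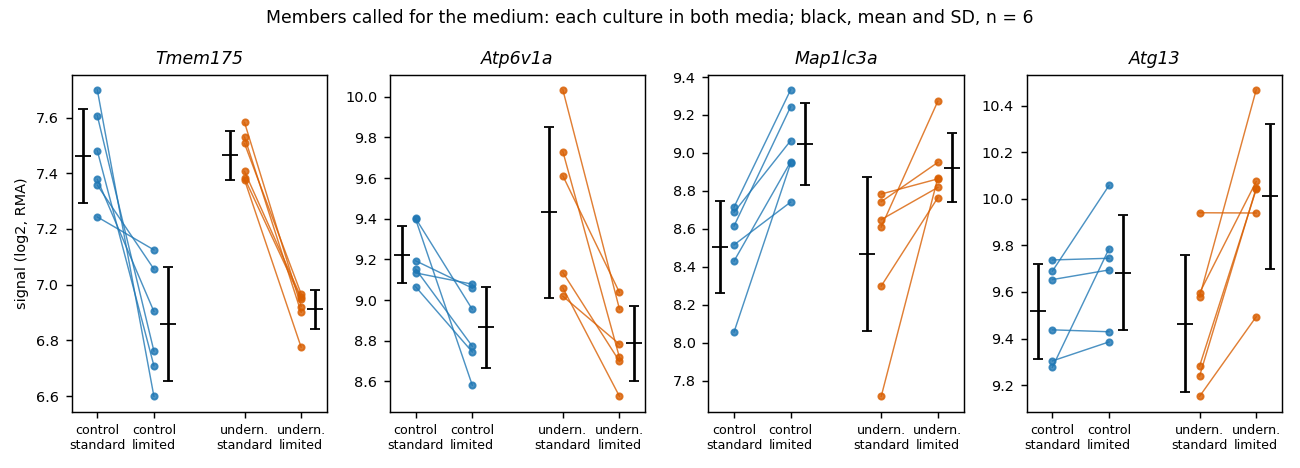
Level (log2 signal, RMA) of the 4 called genes on each array, with a line joining both arrays of a culture, control offspring in blue and undernourished offspring in orange, and mean and SD of 6 arrays in black. Tmem175 and Atp6v1a are lower and Map1lc3a is higher in limited medium in 12 of 12 cultures, and Atg13 is higher in 10 of 12.

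In the rest of the initiation group the kinases Ulk1 and Ulk2 differed by 0.025 and -0.049 and the scaffold gene Rb1cc1 by 0.095, none of them called. All 5 nucleation genes had a higher mean in limited medium, between 0.057 for Becn1, the gene of Beclin 1, and 0.17 for Wipi1, which binds the lipid that marks the site. Atg14, which directs the lipid kinase to autophagy, was the only one of them with an unadjusted p under 0.05 (0.14, adjusted p 0.186). Of the 6 conjugation genes, 5 had a higher mean, and their differences lay between -0.095 (Atg7, the activating enzyme) and 0.11 (Atg16l1, which places the conjugation complex on the membrane), with none called.

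The other ATG8 genes were mixed. Gabarapl2 had, as lowest, median and highest level, 6.77, 7.09 and 7.33 in standard and 7.16, 7.33 and 7.58 in limited medium in control cultures. The undernourished cultures had 6.89, 7.18 and 7.40 in standard and 7.19, 7.25 and 7.52 in limited medium. All 4 groups overlapped, and its difference, 0.21 ± 0.067, missed the threshold (adjusted p 0.0627), although its level was higher in 10 of 12 cultures. Map1lc3b differed by 0.11 and Gabarap by 0.10, while Gabarapl1 had a lower mean in limited medium (-0.19, adjusted p 0.324). The cargo receptors Sqstm1 (p62) and Nbr1, which bind ubiquitinated cargo and are themselves degraded with it, differed by -0.063 and -0.0057.

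The 8 lysosomal enzymes were split evenly, with 4 higher and 4 lower, and none was called. Ctsl, a cysteine protease, had the largest difference (0.27 ± 0.10, adjusted p 0.131, higher in 10 of 12 cultures), and Gaa, which breaks down lysosomal glycogen, the lowest (-0.17, adjusted p 0.32). The aspartic protease gene Ctsd differed by 0.0057, the cysteine protease genes Ctsb and Ctsz by -0.045 and -0.089, the protective protein gene Ctsa by -0.075, and the glycosidase genes Hexa and Neu1 by 0.11 and 0.099. The 4 proton pump genes differed in sign. Atp6v1h, a subunit of the same cytosolic V1 part as Atp6v1a, had a lower mean in 11 of 12 cultures but was not called (-0.27 ± 0.089, adjusted p 0.0651). In the membrane part of the pump, Atp6v0a1 differed by -0.15 (adjusted p 0.396) and Atp6v0d1 by 0.16 (adjusted p 0.146).

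Among the other lysosomal genes, Npc2, which hands cholesterol to the membrane protein NPC1, had a lower mean in 9 of 12 cultures without being called (-0.22 ± 0.082, adjusted p 0.108). Npc1 itself differed by -0.12, the membrane proteins Lamp1 and Lamp2 by 0.082 and -0.18, and the calcium channel gene Mcoln1 by 0.055, none of them called. The transcription factor genes Tfeb and Tfe3 differed by 0.0050 and 0.091, neither called. Tfeb levels lay between 5.78 and 6.40, around the median level of all tested genes (6.02), a rough mark because probes differ. No detection call was used, so all Tfeb values here and below may come from a dim signal.

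**Figure D2:**
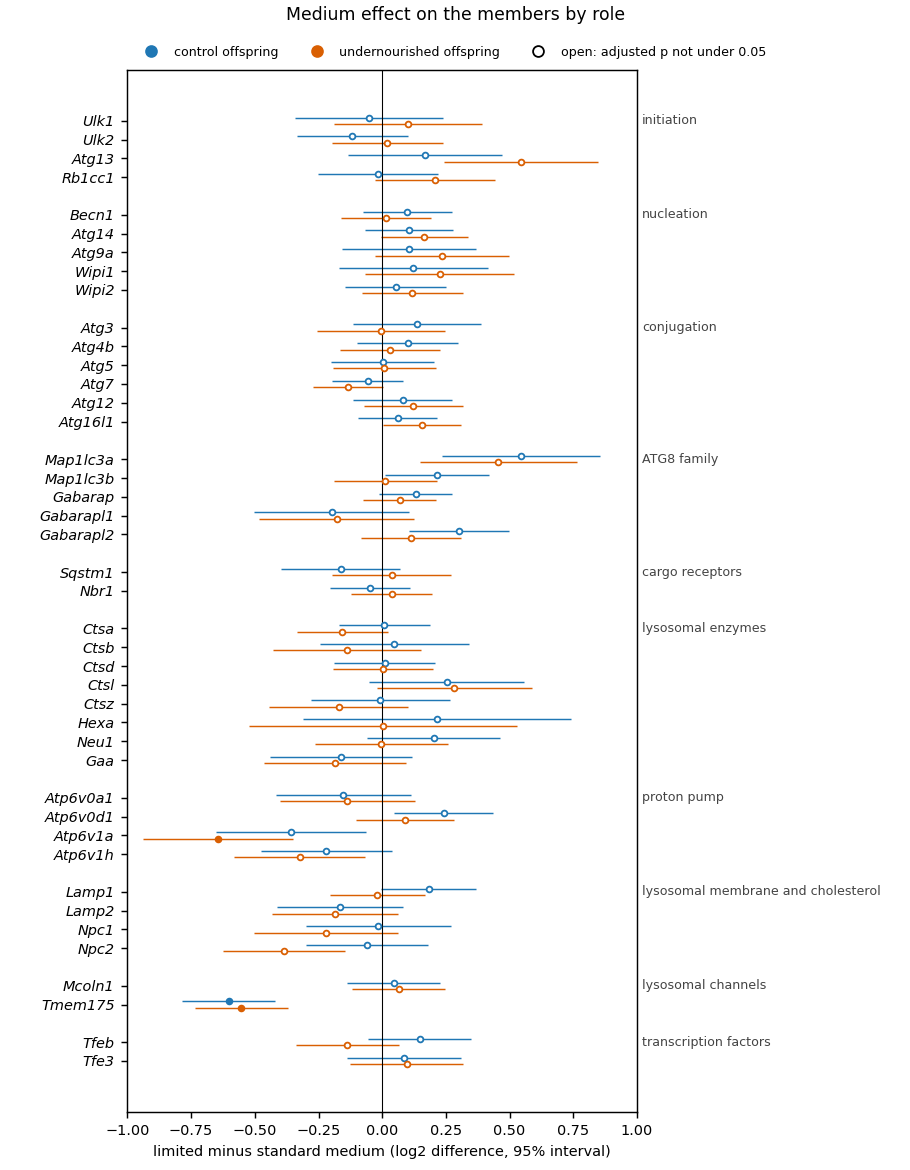
Medium effect (limited minus standard, log2 difference with 95% interval) on the 42 genes by role, control offspring in blue and undernourished offspring in orange, 6 cultures each, with filled points where the adjusted p was under 0.05. Filled points are Tmem175 in both kinds of culture and Atp6v1a in undernourished cultures.

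Within control cultures 1 of the 42 genes, Tmem175, was called, against 0.343% of all genes. In undernourished cultures 2 were called, Tmem175 and Atp6v1a, against 1.46% of all genes. The comparison over both diets uses the same arrays as these 2, so the 3 counts are not separate evidence. At an unadjusted p under 0.05 there were 11 of 42 over both diets, 6 in control and 7 in undernourished cultures, where all genes gave 20.3%, 13.1% and 13.4%. In control cultures the 5 beside Tmem175 were Map1lc3a, Map1lc3b, Gabarapl2 and Atp6v0d1, with a higher mean, and Atp6v1a, with a lower one. In undernourished cultures Npc2 (-0.39 ± 0.12, adjusted p 0.0979), Atp6v1h (-0.32) and Atg16l1 (0.16) were among the 7.

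**Figure D3:**
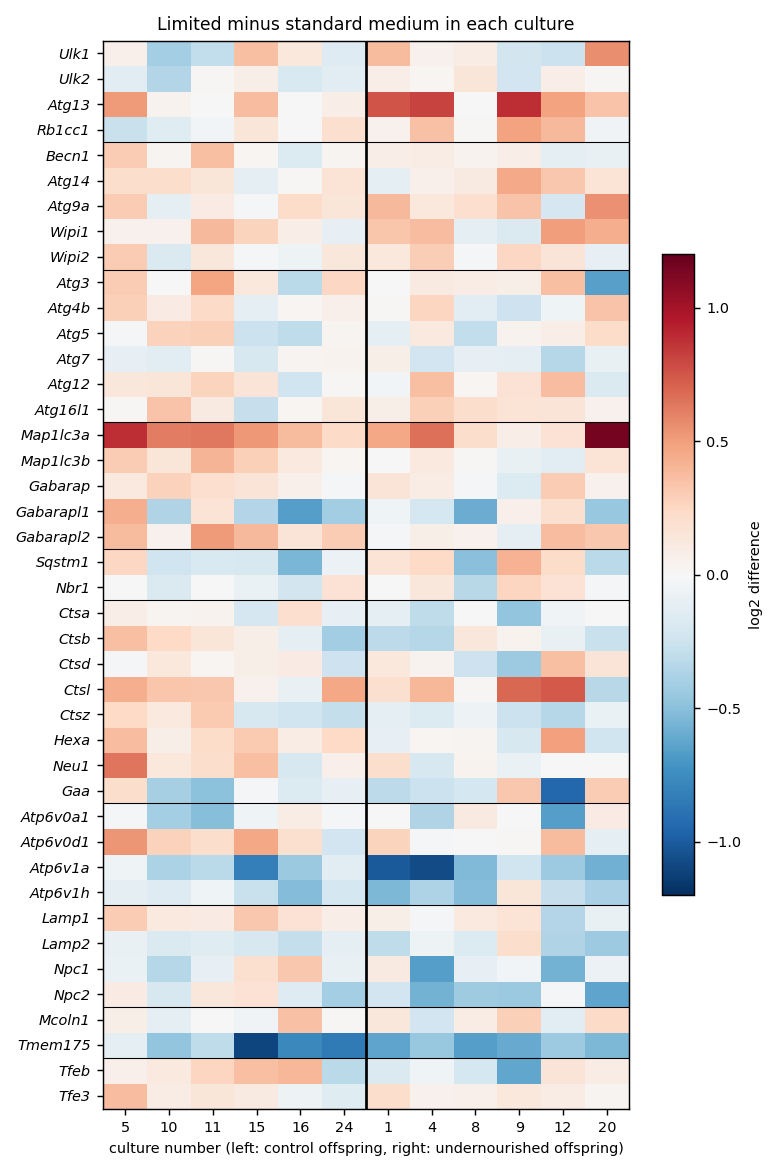
Limited minus standard medium (log2 difference, colour scale) for each of the 42 genes, one row per gene by role and one column per culture, control offspring left of the thick line. The Tmem175 and Atp6v1a rows are blue in all 12 cultures and the Map1lc3a row is red in all 12, while most other rows hold both colours.

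Autophagosome genes were then compared with lysosomal enzymes and the proton pump. The median difference over both diets was 0.090 for the 22 autophagosome genes, of which 17 had a higher mean in limited medium, and -0.060 for the 12 enzyme and pump genes, of which 5 did. The median of all 22180 genes was 0.0052, with 51.8% of them higher. In control cultures the medians were 0.089 and 0.0084, and in undernourished cultures 0.085 and -0.14. The 8 measured fibroblast markers had a median difference of 0.012 in control and -0.28 in undernourished cultures, with none called, and their part in the enzyme and pump values was not tested. Because the genes were listed with results of these data known, these medians are given without a test.

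Taken per culture, the median difference of the autophagosome genes was above that of the enzyme and pump genes in 11 of 12 cultures. The gap averaged 0.12 ± 0.11 (SD, n = 12) on the log2 scale and ran from -0.054 in culture 10 to 0.35 in culture 4. In culture 4 the marker means differed between media by -0.55 for fibroblasts, -0.32 for satellite cells and myoblasts and -0.32 for smooth muscle and pericytes. The other marker means differed there by 0.29 for myotubes, 0.20 for adipocytes, -0.082 for macrophages and leukocytes, -0.013 for endothelial cells and -0.00069 for Schwann and glial cells. The part of these markers in the gap of culture 4 was not tested. The gap averaged 0.055 ± 0.080 (SD, n = 6) in control cultures and 0.18 ± 0.11 (SD, n = 6) in undernourished cultures, where arrays were joined by number alone. In culture 5 both sets had a median near 0.23, so the gap there was 0.0030.

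**Figure D4:**
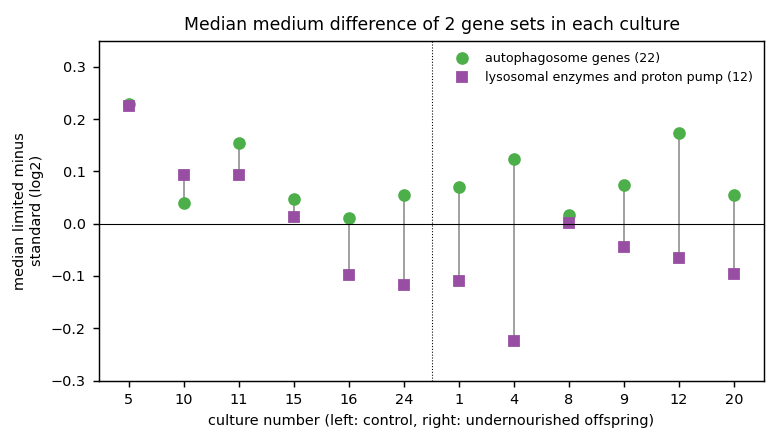
Median limited-minus-standard difference (log2) of the 22 autophagosome genes (circles) and the 12 lysosomal enzyme and proton pump genes (squares) in each culture, control offspring on the left. The circle lies above the square in 11 of 12 cultures, with the widest gap, 0.35, in culture 4.

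Of 123 further autophagy and lysosome genes, 114 were measured. The 41 of them on the autophagosome side had a median of 0.0092, with 21 higher and 20 lower, and 13 further proton pump genes had a median of 0.052, with 10 higher. The 32 further lysosomal enzymes had a median of -0.089, with 22 lower. Of the 114, 8 rose and 5 fell over both diets, against 3.56% and 3.28% of all genes.

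The largest of these rises was that of Pink1, the kinase that marks damaged mitochondria for autophagy (0.61 ± 0.11, 1.53-fold, adjusted p 0.00186, higher in 11 of 12 cultures). Pink1 was also the only one of the 114 called within a diet, in undernourished cultures (0.65 ± 0.16, adjusted p 0.0407), a call that was lost in 9 of 21 alternatives. Atg101, the partner of ATG13 in the ULK1 complex, rose by 0.31 ± 0.077 (adjusted p 0.0148, higher in 11 of 12 cultures), and Mitf, a relative of TFEB, rose by 0.28 ± 0.066 (adjusted p 0.0114, 12 of 12). Uvrag, a partner of Beclin 1, rose by 0.23 ± 0.059 (adjusted p 0.0163, 12 of 12), and Wdr45, which encodes the WIPI4 protein, by 0.33 ± 0.092 (adjusted p 0.0292, 11 of 12). The reticulon gene Rtn3, a receptor for autophagy of the endoplasmic reticulum, fell by 0.20 ± 0.052 (adjusted p 0.0188, lower in 10 of 12). Of the enzymes, Galc, which breaks down galactosylceramide, fell by 0.34 ± 0.089 (adjusted p 0.0192, lower in 11 of 12), while Ctsf, a cysteine protease, rose by 0.38 ± 0.11 (adjusted p 0.0308, higher in 11 of 12). The other 5 called genes, named after their values were seen, were Gnptg and Tmem41b, which rose, and Atg10, Manba and Sec62, which fell. The call of Atg101 was lost in 1 of 21 alternatives, those of Rtn3 and Galc in 3 each and those of Wdr45 and Ctsf in 6 each.

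Maternal undernutrition was compared with the control diet in each medium and over both. None of the 42 genes was called in any of these 3 comparisons, nor was any of the 114 others, and the share of all genes called was 0 in each. At an unadjusted p under 0.05, limma gave 1 of the 42 in standard medium, 4 in limited medium and 1 over both media, where all genes gave 3.14%, 5.44% and 3.57%. In standard medium this was Ctsb (0.30 ± 0.14 higher in undernourished cultures, unadjusted p 0.0441, adjusted p 1.00). In limited medium these were Atg13 (0.33) and Sqstm1 (0.28), with a higher mean in undernourished cultures, and Ctsz (-0.31) and Tfeb (-0.27), with a lower one, each with an adjusted p of 0.894. Over both media, comparing 6 culture means with 6, Sqstm1 differed by 0.19 ± 0.073 (95% interval 0.028 to 0.34, adjusted p 0.999). The intervals of all 42 genes over both media lay between -0.84 and 0.46, so that diet differences of a size like the medium differences above are not excluded by these data for genes with wide intervals such as Hexa.

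Whether the medium effect differed between the maternal diets was tested as an interaction. No gene was called, of the 42 or of all 22180, and none of the 42 had an unadjusted p under 0.05, where all genes gave 2.9%. The smallest was that of Tfeb (-0.28, p 0.0517, adjusted p 1.00), with a medium difference of 0.15 in control and -0.14 in undernourished cultures, neither called. Npc2 followed (-0.33, p 0.0565, adjusted p 1.00). The interaction was below 0 for 10 of the 12 enzyme and pump genes, with a median of -0.16. It was above 0 for 14 of the 22 autophagosome genes, with a median of 0.051. Over all 22180 genes the median was -0.0088, with 11659 below 0 and 10521 (47.4%) above. Among the 32 further lysosomal enzymes 28 had an interaction below 0, with a median of -0.19. Of all 114 further genes 80 had an interaction below 0 (median -0.087), and the 41 further autophagosome genes had 18 above and 23 below 0 (median -0.0072). In undernourished cultures the mean of the fibroblast markers differed between media by -0.82 in culture 9 and -0.55 in culture 4. In cultures 1, 8, 20 and 12 it differed by -0.21, -0.17, -0.073 and 0.026. These differences join arrays by number alone. No fibroblast marker was called, and the part of these markers in the enzyme values was not tested.

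Levels also varied from culture to culture. The range over the 12 culture means, which span both maternal diets and so include any difference between them, had a median of 0.52 log2 units for the 42 genes, beside 0.48 for all genes, 0.50 for the autophagosome genes and 0.68 for the enzyme and pump genes. Hexa, which encodes the alpha subunit of the enzyme that degrades GM2 ganglioside, had the widest range of the 42, 1.88 or 3.68-fold. Culture 8 had Hexa levels of 7.95 in standard and 7.98 in limited medium, and no other array was below 8.83. Culture 20 had the highest Hexa mean, 9.84. It also had the highest marker means for Schwann and glial cells (8.51), fibroblasts (7.55) and smooth muscle and pericytes (6.49), and the part of these markers in the Hexa level was not tested. After Hexa came Ctsz with a range of 0.83 and culture 8 lowest, and Lamp2 with 0.79 and culture 1 highest. Culture 8 had the lowest mean for 10 of the 42 genes and culture 20 for 9, and cultures 4, 20 and 9 had the highest for 7, 7 and 6. The same counts were not made over all genes, so these do not mark a trait of the listed genes.

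Promoter windows, from 250 bases before to 50 after a start, were given in RefSeq (GRCm38.p6) for 34 of the 42 genes, in 39 windows, and 8 genes, Map1lc3a among them, had none there. The E-box core CACGTG, the centre of the site to which TFEB and its relatives bind, occurred in 12 of the 39 windows (30.8%), from 12 genes, and in 7.15% of all 32851 windows. Among enzyme and pump genes 6 of 11 windows held it (54.5%), and among autophagosome genes 4 of 18 (22.2%). Both strands were searched, though this core reads the same on each. The CLEAR palindrome, in which the core is preceded by GT and followed by AC, occurred in no listed gene's window and in 0.326% of all windows. TGACGTCA, the cyclic AMP response element, occurred in the Atg5 window alone (2.56%, beside 1.79% of all windows), and neither TGATGCAA, the composite site of CHOP and ATF4 (0.895% of all), nor GTAAACA, a FOXO site (3.65% of all), occurred. A match is a description of letters and not a bound site.

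Of the 12 genes with the core 1, Atp6v1a, was called over both diets, and of the 22 with a window and no core 2 were called, Atg13 and Tmem175. Among all genes 6.84% were called, so both counts are near the background. The median medium differences of the 12 and the 22 genes were 0.030 and 0.045. The sequence around 1 core of each of the other 11 genes is printed to show how the flanking bases vary, with the core in capitals, 5′ to 3′ on the gene's strand.
Atp6v0d1, chr8:105566050-105566079, minus strand: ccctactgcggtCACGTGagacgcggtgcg
Ctsa, chr2:164833749-164833778, plus strand: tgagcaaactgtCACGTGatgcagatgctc
Ctsd, chr7:142387908-142387937, minus strand: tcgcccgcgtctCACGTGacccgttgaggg
Ctsl, chr13:64370739-64370768, minus strand: ggcgttagaagcCACGTGctgatctaaatt
Gaa, chr11:119267811-119267840, plus strand: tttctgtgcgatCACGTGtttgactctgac
Lamp1, chr8:13159121-13159150, plus strand: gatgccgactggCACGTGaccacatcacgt
Mcoln1, chr8:3500462-3500491, plus strand: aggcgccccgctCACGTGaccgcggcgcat
Atg3, chr16:45158723-45158752, plus strand: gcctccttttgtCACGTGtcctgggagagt
Atg5, chr10:44268313-44268342, plus strand: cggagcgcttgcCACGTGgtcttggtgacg
Atg7, chr6:114670952-114670981, plus strand: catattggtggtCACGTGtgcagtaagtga
Atg14, chr14:47568418-47568447, minus strand: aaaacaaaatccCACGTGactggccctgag
The core lay between 236 bases (Ctsl) and 1 base (Atg14) before the start in the printed stretches. Further cores, not printed, lay 245 bases before the start in Ctsd and 5 bases after it in Ctsa, and the windows of Lamp1, Mcoln1 and Atg3 also held more than the printed core. The printed stretches of Ctsa, Ctsl and Atg7 lie wholly inside the annotated span of the gene, so their starts are not the outermost ones. Of the 12 genes, 8 had a higher and 4 a lower mean in limited medium. Of the 22 with a window and no core, 13 had a higher and 9 a lower mean, and 51.8% of all genes were higher.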

How the data were processed

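RNA from 12 numbered cultures in each of 2 media, 1 single-colour Affymetrix array per sample and 24 arrays in all, had been extracted with Trizol and labelled with biotin, per the labels' protocols. The authors deposited log2 values made with RMA in Affymetrix Expression Console, per the submitters' processing notes. The sources used here do not give versions, the genome build of the clusters or the base of the logarithm, and base 2 was read from the range (1.69 to 14.1, array medians 5.60 to 5.81). RMA sets every array to one distribution, so a change common to most genes would not show. No detection calls were used, no dim genes were removed, and precision is limited by the number of arrays.

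Of 41345 clusters, 23521 had exactly 1 symbol in the platform annotation, 1814 had several and 16010 none, and 23328 matched the RefSeq gene table by Entrez identifier. Keeping the highest-mean cluster of the 1082 genes with more than 1 left 22180 genes. These were fitted with limma 3.58.1 (lmFit and eBayes) in R 4.3.3 on 4 group means, two-sided, with Benjamini-Hochberg adjustment over all of them. The maternal diet effect over both media used 12 culture means. The fit of the medium effect over both diets was tested on simulated arrays with 200 changed genes. These had independent noise and no culture effect, so neither the other comparisons nor the pairing were covered.

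The genes, their roles, the further pathway genes and the markers were chosen with earlier results of these data known. Full statistics are given for genes called in any comparison and for the 2 largest rises and 2 largest falls in each medium comparison. Up to 8 further pathway genes were named by adjusted p. Motifs were searched as exact letters.

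Arrays of the same culture number deviated together in control cultures (correlations of their deviations from the group means 0.193 to 0.463, each over 0.1), so the numbers pair those samples, from the data and not from a label. In undernourished cultures 2 of 6 correlations were lower (-0.050 in culture 9 and 0.018 in culture 12), so there the numbers are taken as names. Counts by culture, culture means and the block there join arrays by number without an established pairing. Alternatives were a culture block, quantile normalization, median centring, a filter on dim genes, the mean of a gene's clusters, another variance model, array weights, the second number of the title as a covariate, leaving out cultures 16, 20 and 24, and leaving out each culture.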

Additional observations from a re-analysis of the deposited data

Results flagged for a closer look

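In 9 cases a value stood apart from the other 5 arrays of its group by a gap test at the 95% level, of 168 groups checked, where chance would give about 5% of groups. Culture 8 had the highest Nbr1 level in undernourished standard cultures (10.1) and the lowest Atp6v0d1 level in undernourished limited cultures (9.59). Culture 15 had the lowest Ctsz level (9.51) and the highest Atp6v0a1 level (9.40) among control limited cultures. Culture 9 had the highest Wipi1 level in undernourished standard cultures (9.03) and the lowest Tmem175 level in undernourished limited cultures (6.78). In undernourished limited cultures the highest level of Map1lc3a was that of culture 4 (9.27), that of Gabarapl2 was in culture 12 (7.52) and that of Ctsa was in culture 20 (10.2).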

How the results depend on the processing

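Directions of the genes given with full statistics and of the 8 named pathway genes did not reverse under any alternative run, and of 504 such values 449 kept their side of the threshold, 41 lost a call and 14 gained one. With the culture number as a replicate block, 7 listed genes were called over both diets in place of 4 (Atp6v1h, Gabarapl2 and Npc2 added), while the share of all genes called went from 6.84% to 11.7%. In undernourished cultures, where the pairing is not established, the block gave 5 in place of 2, adding Npc2, Map1lc3a (adjusted p 0.0389) and Atg13 (0.00923). The share of all genes called there went from 1.46% to 4.54%. In control cultures the block gave 2 in place of 1 (0.343% to 2.48%). Array weights also gave 2 in control cultures (1.24% of all genes), and leaving out cultures 16, 20 and 24 gave 0 (0.401%). With 1 culture left out at a time the counts were 3 to 5 over both diets (4.47% to 7.23% of all genes), 1 to 2 in control cultures (0.0451% to 0.73%, with 2 without culture 20) and 1 to 3 in undernourished cultures (0.23% to 2.11%, with 1 without culture 4, 1 or 12), and the gap between the set medians, 0.15, ran from 0.11 to 0.18. Block and single-culture fits changed no count in the maternal diet and interaction comparisons, which stayed at 0 in limma. Not every array correlated best with its own culture number, culture 9 and culture 12 being the exceptions, which is a hint from the data and not the design.

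Over both diets Tmem175, Atp6v1a, Map1lc3a, Pink1, Mitf and Uvrag kept their calls in all 21 alternatives. Atg13 lost its call without culture 5 (adjusted p 0.105), 15 (0.0649), 11 (0.0511), 10 (0.0614), 9 (0.0613), 4 (0.0977), 1 (0.0872) or 12 (0.0678), and after quantile normalization (0.0501). Gabarapl2 gained one in 4 alternatives, with an adjusted p from 0.0306 to 0.153 over all. Lost calls reached an adjusted p of 0.0562 for Atg101 (without culture 4), 0.0916 for Wdr45 (lost without culture 5, 15, 11, 10, 4 or 12), 0.112 for Rtn3 and 0.0537 for Galc (both without culture 4, without 16, 20 and 24, and Rtn3 also without 24 and Galc without 10) and 0.080 for Ctsf (lost without culture 5, 16, 11, 10 or 20, and without 16, 20 and 24). In undernourished cultures Pink1 lost its call in 9 alternatives (up to 0.211) and Atg13 gained one in 6. The causes were not tested.

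The number of cultures, 6 a group, limits what can be seen: the 95% intervals of the maternal diet differences over both media reached from -0.84 to 0.46.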
